A study of Mus musculus with 22 samples.

Results

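The potassium channel genes of the mouse were examined in total RNA from the right brain hemisphere. They were taken as every row of both count tables whose symbol starts with Kcn. Antisense and overlapping transcripts (Kcnd3os, Kcnq1ot1, Kcnmb4os1 and Kcnmb4os2) were left out. This gave 94 of 24421 gene rows, in 21 subfamilies. There were 14 males, 7 of each rank, and 8 females, 4 of each rank, all of the inbred strain C57B6/J OlaHsd, and the labels give no genetic change or treatment. The mice lived in groups of 4, and their rank was set by the tube test, at an age of 10 to 12 weeks. In that test mice meet head-on in a narrow tube, and the one driven back out is the loser. Each of 7 male cages (male cages 1 to 7) and 4 female groups (female groups 1 to 4) gave a dominant and a submissive mouse, and the cages are numbered here like the replicates they hold. Female groups 1 and 2 carry cage numbers in the library names, and female groups 3 and 4 are called Gr1 and Gr2 there. No sequenced mouse is labelled as intermediate in rank. Per the study's methods, some female groups were formed anew from intermediate mice before a repeat of the test. Whether female groups 3 and 4 are such groups is not stated, so their mice may once have ranked as intermediate. The libraries of males and females carry different name prefixes and were deposited as separate tables, so sex and table cannot be told apart.

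Potassium channels let potassium leave a cell and thereby set its resting potential and end its action potentials. Most are built from pore-forming subunits that meet around a central pore, where a short selectivity filter admits potassium and holds back sodium. Voltage-gated channels (Kv) open on depolarization, calcium- and sodium-activated channels open when those ions rise inside the cell, and inward rectifiers and K2P leak channels hold the cell at rest. Auxiliary subunits form no pore and change the gating or the traffic of the channels they bind. In the brain these genes are known for tuning firing rate and transmitter release, and a few for clearing potassium through astrocytes.

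The filter is the part of the sequence that the pore-forming members share. Each member's longest coding sequence (GENCODE M21, GRCm38) was translated and searched for the filter signature, which is threonine, any residue, glycine, tyrosine or phenylalanine, and glycine. It was found in 66 of 77 pore-forming members and in 0 of 17 auxiliary members, against 1.05% of all 21562 coding genes. The 11 pore-forming members in which these letters were not found were Kcnj14, 3 of the 4 Kcnn genes and 7 of the 8 Kcnh genes. Of 14 Kcnk genes, which encode subunits with a pair of pore loops, 11 held the signature at 2 places. The coding bases are shown for a few genes to which the comparisons return, with the codons of the signature in capitals and 6 flanking bases on each side in lower case.
Kcnma1: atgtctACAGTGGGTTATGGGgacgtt
Kcnv1: atgactACAGTAGGATATGGGgacatt
Kcnj10: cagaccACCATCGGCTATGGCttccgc
Kcnt1: ttctcaACTGTGGGCTTCGGTgatgtg
Kcnk10, first loop: atcacaACCATAGGGTATGGGaatatt
Kcnk10, other loop: ctgaccACAGTAGGCTTTGGTgatttt
Kcnc1: atgacgACACTGGGCTATGGAgacatg

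The Kcnma1 stretch lies in exon 8 of 31 of its transcript, at chr14:23528407-23528433 on the minus strand, and its signature is at residues 352 to 356 of the translation. That of Kcnv1 lies in exon 3 of 3 at chr15:45109283-45109309, also on the minus strand. The stretch of the first Kcnk10 loop crosses an intron, and the other lies at chr12:98440599-98440625 on the minus strand.

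Between 12403943 and 15805170 reads were counted on genes per male and between 14967458 and 16488762 per female. The potassium channel genes took 0.501% to 0.557% of them in males and 0.515% to 0.544% in females. Levels are given as CPM, in which edgeR's TMM factors over all 22 libraries correct the counts for depth, and levels of different genes are set against each other only as CPM per kb of exon. The neuronal markers summed to between 3558 and 4438 CPM per library, and glial, vascular, choroid plexus and cerebellar markers were present too. In a whole hemisphere, fewer cells of a type and less RNA per cell cannot be told apart. The library of dominant male 1 stood apart with 24.6 CPM over 6 cerebellar markers, against 218 to 412 CPM in the other males. The rank difference of Kcng4 in males is given without that library as well. In 8 members some exon bases overlap a gene on the other strand. The strand setting of the counting is not given in the sources used here, so Kcnmb4 and Kcnn2, with over 10% of their exon bases shared, are uncertain.

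Averaged over the 22 libraries, the highest levels per exon length belonged to auxiliary subunits of Kv channels. Kcnab2, a cytoplasmic beta subunit of the Kcna channels, stood at 75.8 CPM per kb and its relative Kcnab1 at 53.8. Kcnip4, a calcium-binding partner of the Kcnd channels, reached 34.0 and Kcnmb4, the neuronal partner of Kcnma1, 35.4 CPM per kb. Kcnrg, which encodes a regulator of Kv assembly, stood at 0.42 CPM per kb, and Kcne1l led its subfamily of small membrane partners at 4.81.

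Among pore-forming Kv genes, Kcnd2, the A-type channel of dendrites, led with 51.9 CPM per kb. Kcna1 and Kcna2, the low-threshold channels of axons, followed with 39.2 and 36.8. Kcnc2, one of the fast-spiking channels, had 29.0 CPM per kb. Of the silent subunits, which open no channel alone and join Kcnb partners, Kcnv1 (28.8), Kcnf1 (17.6), Kcns2 (10.9) and Kcng4 (10.6 CPM per kb) were the highest of their subfamilies. Kcnq3, a subunit of the M-current that curbs repetitive firing, had 22.9 CPM per kb. Kcnh7 led the ether-à-go-go family with 26.4.

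Kcnma1, the large-conductance calcium-activated channel, stood at 29.9 CPM per kb, the sodium-activated Kcnt2 at 26.1 and the small-conductance Kcnn2 at 15.5. Kcnu1, known from sperm, was at 0.92. The leading inward rectifier was Kcnj4 at 37.4 CPM per kb, and the leading leak channel was Kcnk1 at 52.8. Of the 94 genes, 56 had a mean over 10 CPM and 16 a mean under 1 CPM, and none was at 0 counts in all libraries. In the plot of levels, each of the 4 largest subfamilies (Kcna, Kcnh, Kcnj and Kcnk) also held genes below 1 CPM per kb.

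**Figure D1:**
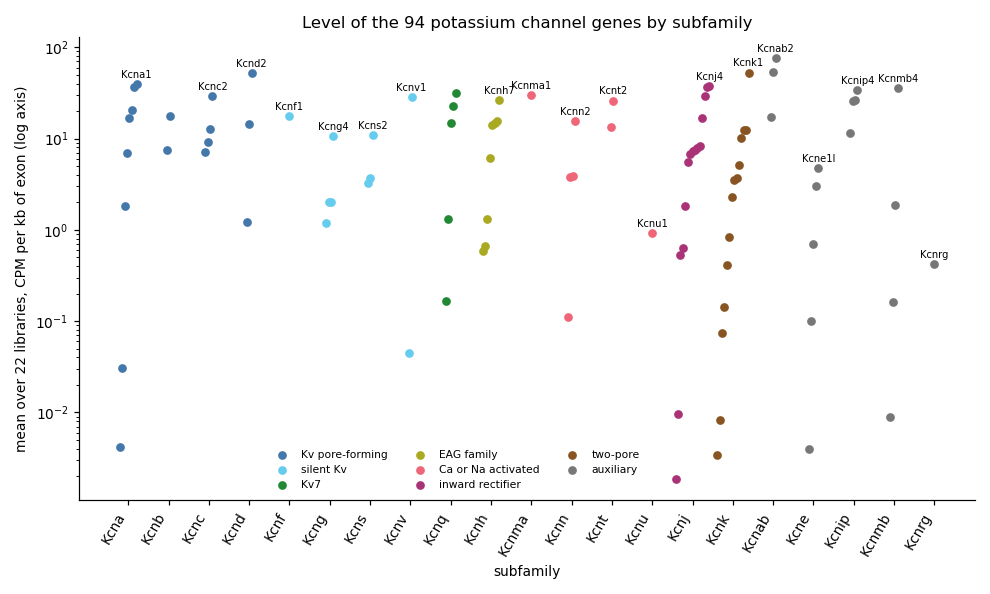
Mean level of each of the 94 potassium channel genes over the 22 libraries, in CPM per kb of exon on a log axis, by subfamily. Each point is a gene, the colour gives the functional class and the highest gene of most subfamilies is named. Kcnab2 is the highest at 75.8 CPM per kb.

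The genes differed in how much their levels varied between libraries. The smallest SDs of log2 CPM over all 22 libraries were 0.061 for Kcnab1, whose values ran from 167.8 to 201.4 CPM, 0.065 for Kcnj3 and 0.073 for Kcnk1. Among genes of higher level, Kcnj10 (mean 90.3 CPM) had an SD of 0.30 and Kcnmb4 (mean 35.6 CPM) one of 0.27. The largest SDs among genes tested in both sexes belonged to Kcng1 (0.40), Kcnj14 (0.38) and Kcnj5 (0.37), all low in level. A low-count filter was passed by 79 members in males and 81 in females. Kcnmb1 and Kcnq1 passed in females only. The 13 members that passed in neither sex were Kcna7, Kcna10, Kcne1, Kcne3, Kcnj1, Kcnj15, Kcnk7, Kcnk15, Kcnk16, Kcnk18, Kcnmb3, Kcnn4 and Kcnv2. Their summed counts over all 22 libraries ran from 1 for Kcnk16 to 74 for Kcnn4 and Kcnv2.

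The first comparison asked whether these genes differ between dominant and submissive males. No member passed the test. In edgeR's quasi-likelihood test 0 of 79 passed an adjusted p of 0.05, as did 0.0% of all genes tested, and DESeq2 also called 0. At an unadjusted p under 0.05 there were 0 members, against a background of 1.32%. The median log2 fold change, dominant over submissive, was -0.014 over the 79 members and -0.0015 over all genes.

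The smallest p-values among males belonged to Kcng4 and Kcnj6. Kcng4 ran from 19.0 to 45.5 CPM in dominant males (median 38.4) and from 31.4 to 48.5 in submissive males (median 47.0). The log2 fold change was -0.25 ± 0.14 (SE), with an adjusted p of 1.00 in edgeR. Without dominant male 1, the lowest of the 14, it was -0.14. Kcnj6, a G-protein-gated inward rectifier, ran from 37.8 to 52.4 CPM in dominant and from 45.7 to 55.2 in submissive males, and its log2 fold change was -0.11 ± 0.065 (SE). Its lowest value was that of dominant male 6, without which the log2 fold change was -0.065. On the positive side Kcnrg (0.23) and the silent subunit Kcns1 (0.10) had the smallest p-values. Over the alternative fits Kcnrg ran from 0.11 to 0.42 and Kcns1 from 0.057 to 0.16. The dominant and the submissive ranges overlapped for each of the 79 members.

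Dominant male 1, whose cerebellar markers were low, also stood apart in genes at large. It lay below all other males for 11 of 79 tested members (background 11.2%) and above all of them for 19 (background 10.9%). Kcng4 was at 0.44 times the median of the other males and Kcnk10, a mechano-gated leak channel, at 0.51 times, with 15.9 CPM against 26.3 to 35.9. Kcnd2 was at 190.2 CPM against 216.3 to 273.0. On the other side Kcnh4 reached 7.24 CPM against 4.14 to 5.81, and Kcnf1 103.0 against 66.5 to 92.3. The part of the cerebellar markers in these values was not tested.

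Dominant male 6 was the lowest male for some members to which the female comparison returns. It had 209.0 CPM of Kcnma1 and 51.3 CPM of Kcnq3.

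In females the same comparison gave small differences, above 0 for 50 of 81 members and for 7302 of 14865 genes tested, and no member passed the adjusted threshold in edgeR. It called 0 of 81 members, against a background of 0.0942%. At an unadjusted p under 0.05 there were 16 members, or 14 higher and 2 lower in dominant females, where the background over all genes was 10.5% in all, 6.43% higher and 4.08% lower. The median log2 fold change was 0.014 over the 81 members and -0.0020 over all genes. The dominant and submissive ranges did not overlap for 6 members higher in dominant females (background 3.38%) and 1 member lower (background 2.29%). The 94 genes together summed to 5297 to 5447 CPM in dominant and 5098 to 5201 CPM in submissive females, and to 4953 to 5586 and 5245 to 5594 CPM in dominant and submissive males.

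Kcnma1 was at 205.1, 196.7, 218.7 and 220.7 CPM in dominant females 1 to 4 and at 191.4, 193.4, 184.2 and 190.6 in submissive females 1 to 4. Every dominant female was above every submissive one. The log2 fold change was 0.14 ± 0.037 (SE, 4 against 4), with an adjusted p of 0.153 in edgeR. Kcnma1 is among the potassium channel genes that the study lists as higher in dominant females, and since it was chosen on these samples, its direction here is no independent evidence.

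**Figure D2:**
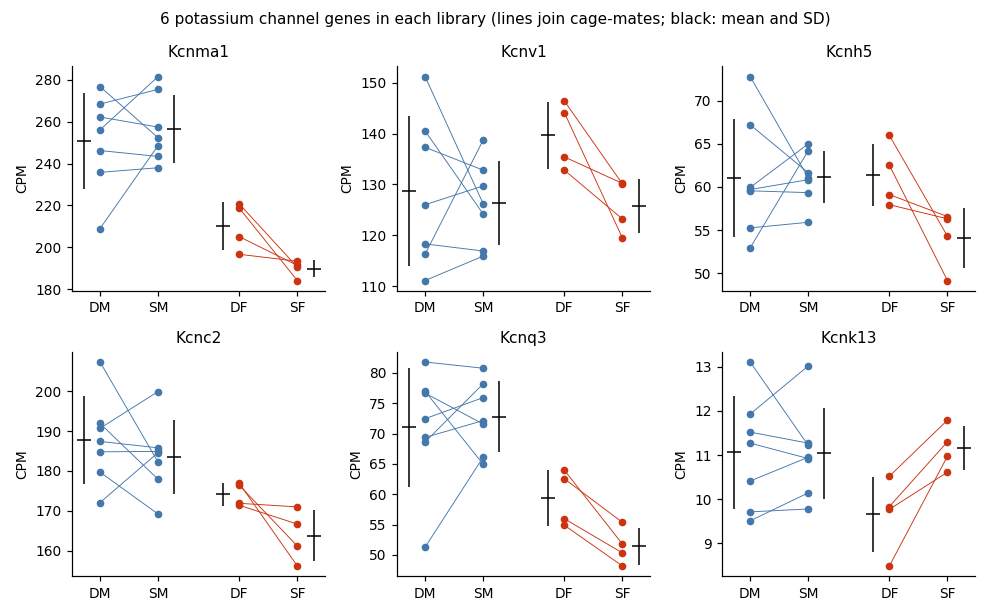
Level in CPM of 6 potassium channel genes in each library of dominant (DM) and submissive males (SM) and dominant (DF) and submissive females (SF). Thin lines join cage-mates and black marks give the mean and SD. Dominant females lie above submissive females without overlap in Kcnma1, Kcnv1, Kcnh5 and Kcnc2, overlap them in Kcnq3 and lie below them in Kcnk13, while the dominant and the submissive males overlap in all 6.

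The count of members called depended on the tool. DESeq2, the tool that the study used, called 3 members (background 0.518%), among them Kcnma1 at an adjusted p of 0.0481. With the cage as a replicate block, edgeR called 1 member (background 0.242%), which was not Kcnma1. In female groups 3 and 4 (Gr1 and Gr2) alone 4 members passed (background 0.804%), Kcnma1 and Kcnh5 among them, with a log2 fold change of 0.23 for Kcnma1. In female groups 1 and 2 alone 0 did (background 0.0335%), and the log2 fold change of Kcnma1 was 0.057. Each of these subsets holds 2 mice per rank, and the difference between them was not tested.

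Of the other silent and Kv members, Kcnv1 was at 146.4, 135.4, 144.1 and 132.8 CPM in dominant and at 130.1, 130.2, 119.5 and 123.2 in submissive females. Its ranks did not overlap, and the log2 fold change was 0.15 ± 0.040 (SE) with an edgeR adjusted p of 0.162. Kcnh5, an ether-à-go-go channel, ran from 57.94 to 65.97 CPM against 49.2 to 56.6, also without overlap. Kcnc2 was at 171.4, 171.9, 176.9 and 176.4 CPM in dominant and at 166.7, 171.0, 156.2 and 161.2 in submissive females. Its ranks did not overlap either, and its log2 fold change ran from 0.018 to 0.15 over the alternative fits. Kcnc1 (0.12) and Kcna2 (0.070) had unadjusted p-values under 0.05 as log2 fold changes, and their ranks overlapped.

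Kcnq3 was at 62.5, 56.0, 54.9 and 64.0 CPM in dominant and 55.4, 50.3, 48.2 and 51.8 in submissive females. The ranks overlapped by 1 pair of values, and the log2 fold change was 0.20 ± 0.055 (SE). Kcnq5, of the same subfamily, had 0.11.

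The 2 members lower in dominant females at an unadjusted p under 0.05 were low in level. Kcnj5, a G-protein-gated inward rectifier, was at 2.27, 1.82, 1.11 and 1.76 CPM in dominant and at 2.59, 2.94, 2.25 and 2.16 in submissive females. Its log2 fold change was -0.51 ± 0.20 (SE), with an edgeR adjusted p of 0.362, and the ranks overlapped. Kcnk13, a leak channel of microglia, ran from 8.48 to 10.5 CPM in dominant and from 10.6 to 11.8 in submissive females and did not overlap (log2 fold change -0.21 ± 0.086). The summed microglial markers ran from 346.7 to 358.6 CPM in dominant and from 349.0 to 356.1 CPM in submissive females. The choroid plexus list stood lower in dominant females for 5 of its 5 tested genes, 4 of them at an unadjusted p under 0.05, with ranges of 692.8 to 857.5 and 663.4 to 1010.0 CPM. Of the channel genes known from that tissue, Kcnj13 and Kcne2, neither had an unadjusted p under 0.05, and the part of the choroid plexus in the female differences was not tested.

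**Figure D3:**
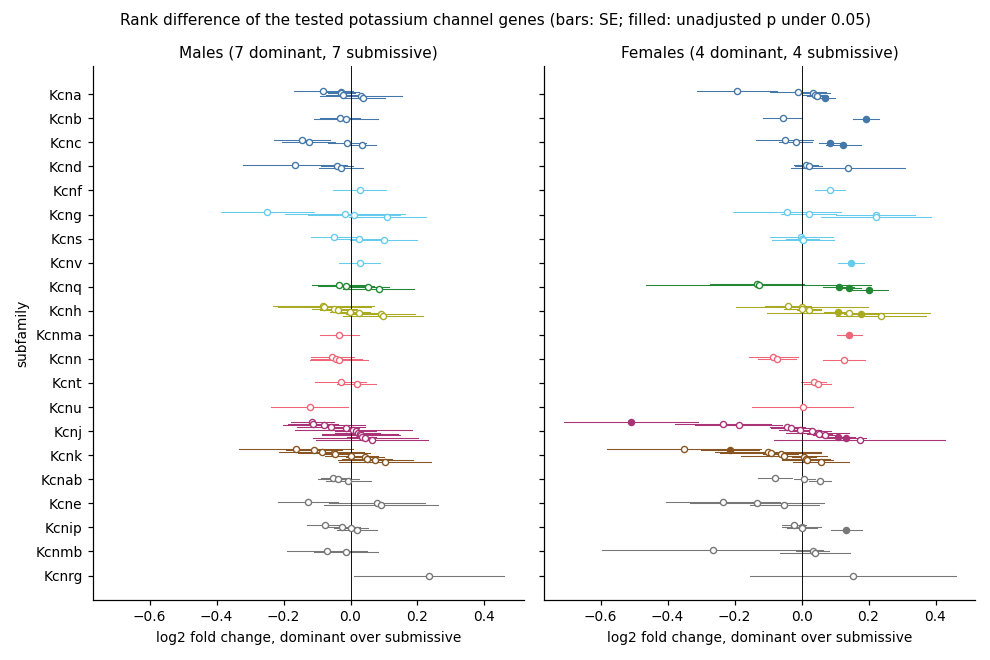
Log2 fold change of dominant over submissive mice for each tested potassium channel gene, by subfamily, in males (left, 79 genes) and females (right, 81 genes). Bars are standard errors and filled points mark an unadjusted p under 0.05. There are 0 filled points in males and 16 in females, 14 of them above 0.

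The differences in females went with the length of the genes. Members with more exon bases than the median tested gene had a median log2 fold change of 0.034, and shorter members one of -0.010. Over all genes the corresponding medians were 0.018 and -0.024. With each library's trend on exon length removed, the medians were 0.0098 and 0.0092 for the longer and shorter members, and 0 members were called. Kcnma1 then had a log2 fold change of 0.096 (edgeR adjusted p = 0.486). The cause of the length trend was not tested.

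The rank difference was also compared between the sexes. In a fit over all 22 libraries, 0 of 81 members had a rank difference that differed between females and males at an adjusted p of 0.05 in edgeR (background 0.0%), and DESeq2 called 0 too. At an unadjusted p under 0.05 there were 4 members, against a background of 3.32%, and all 4 had the larger value in females. Kcnj6 had the smallest p (0.23 ± 0.096 on the log2 scale, adjusted p = 0.999), followed by Kcnj12, Kcnma1 and Kcnc1. Kcnj6 had a mean of 45.1 ± 1.64 CPM (SD, n = 4) in dominant and 41.7 ± 2.75 in submissive females, against 47.4 ± 4.81 (n = 7) in dominant and 51.4 ± 3.72 in submissive males. Kcnj5 had the smallest p in the other direction (-0.57 ± 0.28).

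More members were called between the cages of the males than between their ranks. The F test over the 7 cages, with rank as a term, called 8 of 79 members, where the background over all genes was 5.89%. They were the auxiliary subunits Kcnab2 and Kcnmb4, the inward rectifiers Kcnj4 and Kcnj10, the calcium- and sodium-activated Kcnn2, Kcnn3 and Kcnt1, and Kcnh3. In 14 alternative fits Kcnab2 and Kcnj4 passed 12 times and Kcnmb4 and Kcnn2 11 times, while Kcnt1 passed 9, Kcnn3 7, Kcnj10 6 and Kcnh3 5 times. In the simulated data with changed genes this test made more false calls than its threshold allows, and each cage holds 2 mice.

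Kcnab2 had the smallest p. The dominant and the submissive mouse had 258.8 and 251.1 CPM in male cage 1, 250.4 and 249.5 in cage 2, 243.7 and 241.7 in cage 3, and 241.3 and 242.6 in cage 4. In male cages 5, 6 and 7 they had 299.1 and 296.0, 297.0 and 299.5, and 291.9 and 310.7 CPM. The last 3 cages lay above the first 4 (adjusted p = 0.00265 over all 7 cages in edgeR). Within the last 3 cages, the 2 mice of male cage 7 were the lowest and the highest.

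Kcnj4, a strong inward rectifier of forebrain neurons, showed the same division, with cage means of 64.5 to 72.2 CPM in male cages 1 to 4 and 90.1 to 96.3 CPM in male cages 5 to 7 (edgeR adjusted p = 0.00417). Kcnmb4 had cage means of 27.8 to 28.8 and 35.2 to 37.8 CPM. In both genes every mouse of the last 3 cages was above every mouse of the first 4.

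Other members lay lower in the last 3 cages. Kcnn3, a small-conductance calcium-activated channel, ran from 32.6 to 37.6 CPM in male cages 1 to 4 and from 26.4 to 30.8 in male cages 5 to 7. Kcnma1, not called over the 7 cages, ran from 252.3 to 281.5 and from 209.0 to 248.6 CPM. Kcnt1 (86.7 to 101.0 against 71.6 to 89.6) and Kcnj10, the potassium channel of astrocytes (89.7 to 131.9 against 70.2 to 99.0), were lower with some overlap. The summed astrocyte markers ran from 1551 to 1909 CPM in the first 4 cages and from 1816 to 1943 in the last 3, and their part in the Kcnj10 values was not tested.

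The division between male cages 1 to 4 and male cages 5 to 7 was known from earlier results of these data, so its values are a description. It left no overlap for 3 of 79 members higher in the last 3 cages (Kcnab2, Kcnj4 and Kcnmb4), against a background of 4.09%, and for 2 lower (Kcnma1 and Kcnn3), against 4.91%. Within male cages 1 to 4 the cage test called 0 members, and within male cages 5 to 7 it also called 0. The summed level of the 17 auxiliary genes was 781.6 to 805.9 CPM in the first set and 859.6 to 902.5 in the other. The neuronal markers ran from 3558 to 4035 and from 3751 to 4209 CPM. The library names also number the male libraries in the order of their cages, so the running number went with this division. Libraries had 12403943 to 14379997 counted reads in male cages 1 to 4 and 14166495 to 15805170 in male cages 5 to 7. The part of library order and depth in the division was not tested. Beyond the cage and the running number, neither the labels nor the library names say what differed between these cages.

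**Figure D4:**
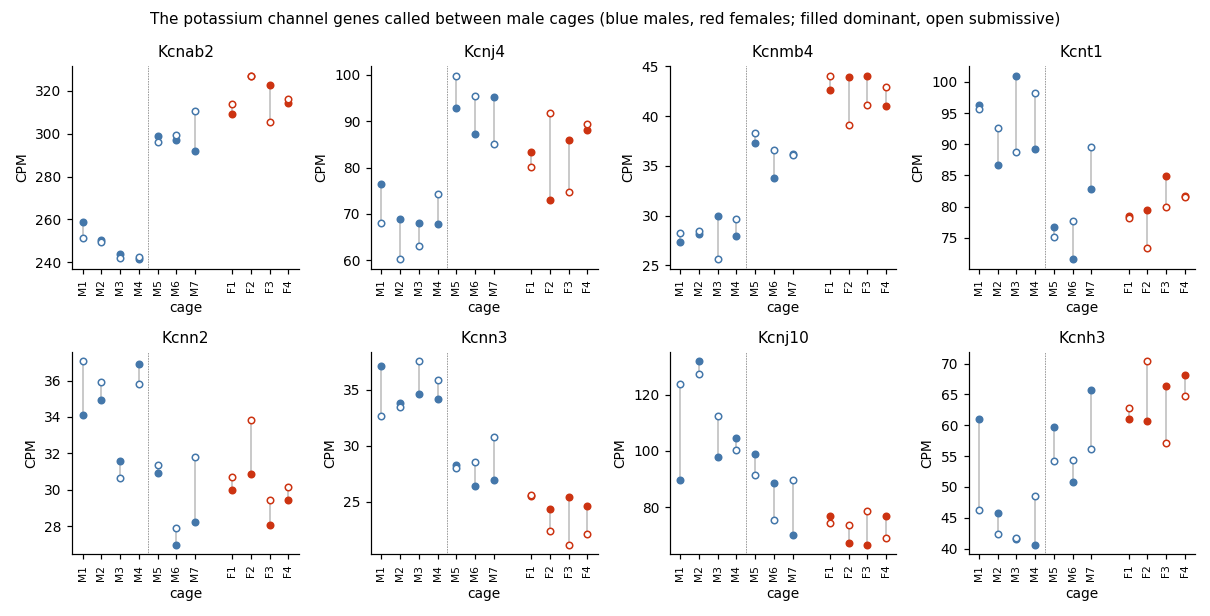
Level in CPM of the 8 potassium channel genes called between male cages, in male cages 1 to 7 (M, blue) and female groups 1 to 4 (F, red). Filled points are dominant mice, open points submissive mice, grey lines join cage-mates and the dotted line separates male cages 1 to 4 from male cages 5 to 7. Kcnab2 is at 241.3 to 258.8 CPM left of that line and at 291.9 to 310.7 right of it.

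Between the 4 female groups the F test called 0 of 81 members in edgeR, with a background of 0.074%. At an unadjusted p under 0.05 there were 5 members, near the background of 5.11%. Kcnj2, an inward rectifier, came nearest, with group means from 40.4 CPM in female group 3 to 53.2 CPM in female group 2 (adjusted p = 0.0759). Kcne2, a small partner subunit, ran from a mean of 4.18 CPM in female group 2 to 7.26 in female group 3.

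More members differed between the tables than between ranks or cages. Females and males differed in 34 of 81 members (17 higher and 17 lower in females) at an adjusted p of 0.05 in edgeR. The background was 36.2% of all genes, or 18.4% higher and 17.8% lower, so the members were called about as often as genes at large. The differences were small, with log2 fold changes of called members between -0.46 and 0.41, and they cannot be assigned to sex alone, since sex and table cannot be told apart.

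Calls went mostly up in the auxiliary class and mostly down in the Kv class, and the other classes had at most 5 calls each. Of 14 tested auxiliary genes, 6 were higher and 1 lower in females, and of 15 tested pore-forming Kv genes of the Kcna to Kcnd subfamilies, 2 were higher and 8 lower. The inward rectifiers had 3 higher and 2 lower, and the calcium- and sodium-activated genes 0 and 2. The Kv7 and ether-à-go-go classes each had 1 higher and 1 lower, and the silent and the leak class each had 2 higher and 1 lower. The difference between the classes was not tested. The medians were 0.15 for the auxiliary and -0.12 for the Kv class on the log2 scale, against -0.00015 over all genes. The summed auxiliary level was 913.1 to 964.0 CPM in females, above the 781.6 to 902.5 CPM of the males. The summed neuronal markers did not overlap either, at 4250 to 4438 CPM in females and 3558 to 4209 CPM in males, with 2 of 5 called higher and 1 lower. Of the mural cell markers 1 of 5 was called higher and 4 lower, with sums of 157.2 to 181.1 and 175.6 to 195.6 CPM. The part of these cells in the class values was not tested.

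Kcnmb4 ran from 39.2 to 44.1 CPM in females (median 42.8) and from 25.6 to 38.3 in males (median 29.8), without overlap. Its log2 fold change was 0.41 ± 0.066 (SE, 8 females against 14 males), with an adjusted p of 1.93e-05. Against only the males of cages 5 to 7 it was 0.22, and against only those of male cages 1 to 4 it was 0.58. Of its 1005 exon bases 624 overlap antisense transcripts, so the value is uncertain.

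Kcnip2, a partner of the Kcnd channels, ran from 64.8 to 80.8 CPM in females and from 52.5 to 67.0 in males (log2 fold change 0.25 ± 0.044). Kcnab3 ran from 44.9 to 52.9 against 36.3 to 49.0 (0.24 ± 0.046). Both passed the threshold against either set of male cages, Kcnab3 with 0.15 against the males of cages 5 to 7. Kcnab2 (0.23) and Kcnip4 (0.12) were called higher as well. Against only the males of cages 5 to 7 the log2 fold change was 0.083 for Kcnab2 and 0.072 for Kcnip4, which was then not called (edgeR adjusted p = 0.102), and against those of male cages 1 to 4 that of Kcnab2 was 0.35.

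Kcnma1 had the smallest p of the members. It ran from 184.2 to 220.7 CPM in females (median 195.1) and from 209.0 to 281.5 in males (median 254.2). The log2 fold change was -0.35 ± 0.042 (SE), with an edgeR adjusted p of 5.09e-07. The ranges overlapped only in that dominant females 3 and 4 lay above dominant male 6, the lowest male.

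Kcnn3 ran from 21.1 to 25.6 CPM in females and from 26.4 to 37.6 in males, without overlap (-0.42 ± 0.065). Against the males of cages 5 to 7 alone its log2 fold change was -0.24, and against those of male cages 1 to 4 it was -0.55. Kcnd3, an A-type channel, ran from 86.7 to 97.9 CPM against 97.8 to 124.1 (-0.29 ± 0.036). Kcnq3 (-0.38 ± 0.060), Kcnb2 (-0.27 ± 0.048) and Kcna2 (-0.22 ± 0.039) were lower in females too. With the exon length trend removed Kcna2 stood at -0.043 and was not called (edgeR adjusted p = 0.274), and against the males of cages 5 to 7 it was at -0.14. Kcnj10 ran from 66.8 to 78.6 CPM in females and from 70.2 to 131.9 in males (-0.46 ± 0.089). Its log2 fold change was -0.23 against the males of cages 5 to 7 and -0.61 against those of male cages 1 to 4. Of 5 astrocyte markers, 4 were lower in females at an unadjusted p under 0.05 and 2 of them were called, with sums of 1581 to 1805 CPM in females and 1551 to 1943 CPM in males, and their part in the Kcnj10 value was not tested.

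Kcns1, a silent subunit, was higher in females (0.38 ± 0.074), as was Kcnh3 (0.33 ± 0.075). Against the males of cages 5 to 7 alone Kcnh3 stood at 0.17, and against those of male cages 1 to 4 at 0.47. The 6 cerebellar markers tested all had a log2 fold change above 0 and 1 was called. Their sums were 291.0 to 478.1 CPM in females and 24.6 to 412.3 in males, and their part in the table differences was not tested.

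**Figure D5:**
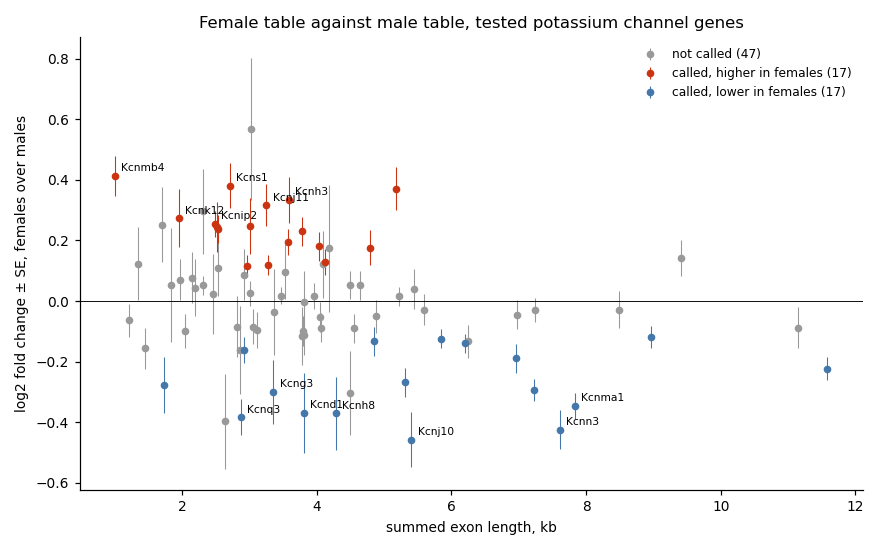
Log2 fold change of females over males, with standard errors, against summed exon length in kb for the 81 tested potassium channel genes. Red and blue points were called higher and lower in females (17 each) and grey points were not called. The called genes longer than 6 kb all lie below 0.

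Exon length moved with the table difference as well. Members longer than the median gene had a median log2 fold change of -0.037, with 11 called higher and 14 lower, and shorter members one of 0.062, with 6 higher and 3 lower. With the length trend removed the longer members had 12 called higher and 9 lower, and 31 members were called in all. The medians were then 0.016 and 0.034.

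The genes that work with these channels were read from a list of 22, of which 20 could be tested. In edgeR no member of the list was called between the ranks in either sex, while Ank3 was called between female ranks by DESeq2 (adjusted p = 0.0355) and with no expression filter (0.0392). Of the 20, 13 were called between the tables, 5 higher and 8 lower in females, where the background was 36.2% of all genes, or 18.4% higher and 17.8% lower. Hcn2, a pacemaker channel that carries a mixed cation current, had the largest difference (0.71 ± 0.053). Dlg4 (0.25), a scaffold that binds Kv channels at synapses, Hcn4 (0.24), Abcc8 (0.17), a sulfonylurea receptor, and Vapa (0.14) were also higher. Of these Hcn4 passed in 11 of 30 alternative fits and Abcc8 in 25 of 31, and Vapa did not pass against the males of cages 5 to 7 (0.076). Cntnap2 (-0.30) and Adam22 (-0.16), which gather Kcna channels along the axon, Dpp6 (-0.16), a partner of the Kcnd channels, Ank3 (-0.34), an anchor of channels at the axon initial segment, Abcc9 (-0.33), Dlg2 (-0.15) and Lrrc55 (-0.21) were among those lower. With the exon length trend removed Adam22 (-0.018) and Dlg2 (-0.030) were not called, and Ank3 (-0.17) and Dpp6 (-0.086) were called with smaller values. Against the males of cages 5 to 7 Dlg2 was again not called (-0.066), and Ank3 stood at -0.20, Adam22 at -0.11 and Abcc9 at -0.21. Ank3 and Dlg2 had unadjusted p-values under 0.05 between female ranks, with log2 fold changes of 0.16 and 0.11, and the ranks of neither overlapped. Vapa, a protein of the endoplasmic reticulum, was lower at that level (-0.076), so 3 of the 20 had such a p, against the background of 10.5%.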

How the data were processed

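Total RNA libraries of 22 right brain hemispheres were analysed. Per the methods, the authors removed ribosomal RNA before making stranded libraries. Reads were cleaned with cutadapt 1.15 and bbduk, STAR 2.6.0a aligned them to mm10, and featureCounts 1.6.2 summed them over the genes of an iGenomes annotation. The deposited values are those raw counts. Tool versions are from the submitters' processing notes. The table's exon length per gene is a number of bases, also deposited by the authors. Of the gene rows, 27 carry a date in place of a symbol and stayed in the tests. Strand and multimapping settings are not given in the sources used here.

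Counts were tested with edgeR 4.0.16 (R 4.3.3, limma 3.58.1), quasi-likelihood, after filterByExpr (minimum count 10, total 15), with TMM factors and Benjamini-Hochberg adjustment over all genes tested. Fits were made within each sex with rank, within each sex with cage and rank, and over 22 libraries for the table difference and the interaction. The quasi-likelihood standard error is the log2 fold change over the square root of F. Log2 CPM used a prior count of 2. The threshold was 0.05. The members and gene lists were chosen with earlier results of these data known. The genes named were, by rule, the called members (at most 10 per comparison), those with the smallest p in each direction, the highest of each subfamily, those listed by the study, the called partner genes and the 3 with the largest SD. Members with an unadjusted p under 0.05 in females, the genes of the cage division, those of dominant male 1 and, between the tables, Kcns1, Kcnh3, Kcnj10, Kcnab2 and Kcnip4 were named after their values were seen. Some genes that this rule names are not reported here.

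Alternatives were DESeq2 1.42.0, DESeq2's size factors, no filter, a mean count of at least 100, the robust prior, removal of each library's loess trend on exon length (span 0.3), the replicate block, all libraries in one fit, sums of cage-mates, subsets of cages, and each library or cage left out. Scripts were tested on simulated data. A count of 0 allows up to 3 counts, or 0.180 to 0.241 CPM, which covers counting error only.

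The replicate numbers pair the samples, since the library names give same-numbered mice the same cage and the mice of a cage were killed together per the methods. Deviations from group means had a mean correlation of 0.177 between cage-mates in males, against -0.0293 for other pairs, and of 0.0239 against -0.0080 in females. With the block 1 member was called in females.

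Coordinates are those of GRCm38, the build of mm10, and coding sequences come from GENCODE M21.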

Additional observations from a re-analysis of the deposited data

Results flagged for a closer look

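Of 156 groups examined (the 39 members named by rule, in 4 groups each), 10 held a library far from the rest of its group by Dixon's criterion, which chance meets in about 1 in 20 groups. Dominant male 1 had 19.0 CPM of Kcng4, against 34.6 to 45.5 in the other dominant males, and 84.2 CPM of Kcnip4, against 97.4 to 106.4. Dominant male 6 had 37.8 CPM of Kcnj6, against 45.7 to 52.4, and 51.3 CPM of Kcnq3, against 68.6 to 81.8. Dominant male 4 had 0.401 CPM of Kcnrg, against 0.729 to 1.08. Submissive male 4 had 31.4 CPM of Kcng4, against 40.4 to 48.5, and 3.29 CPM of Kcne2, against 4.36 to 5.36. That library and dominant male 1 had the lowest sums of cerebellar markers among males, 217.6 and 24.6 CPM. Dominant female 2 had 3.46 CPM of Kcng1, against 6.38 to 6.85. Dominant female 4 had 26.6 CPM of Kcnj12, against 28.3 to 28.7. Submissive female 3 had 130.5 CPM of Kcnk1, against 122.0 to 122.6.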

How the results depend on the processing

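The calls between male ranks (0 members) and for the interaction (0) stayed at 0 under every alternative run, the replicate block included. For the table difference the count of members ran from 28 to 39 over the alternatives, against 34, with 37 against the males of cages 1 to 4 and 28 against those of male cages 5 to 7 (a division added after seeing the data). Between female ranks, where edgeR called 0, DESeq2 called 3, and 1 was called with no expression filter, with the robust prior and with the replicate block. In female groups 3 and 4 alone 4 were called. Leaving out 1 library gave 0 to 2 members, the 2 (Kcnma1 among them) without dominant female 2. Between male cages, where 8 were called, leaving out 1 cage gave 3 to 13, with 13 without male cage 1, 5 without cage 3, 5 or 7 and 3 without cage 6, and 0 were called within male cages 1 to 4 or within male cages 5 to 7, in fits with fewer libraries. Between female groups 2 were called with no filter (Kcnj2 and Kcne2) and 1 with the robust prior, and leaving out 1 group gave 0 to 1. Over 32 named genes and comparisons of rank, table and interaction, 891 of 924 alternative values kept their direction and their side of the threshold, 30 lost the threshold, most of them for Hcn4, 3 gained it and 0 turned. The cause was not tested. The depth sets a limit for the 13 members that could not be tested.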
